A study of Mus musculus with 4 samples.

Results

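The genes described are 8 genes of cholesterol synthesis, Srebf2, Hmgcs1, Mvd, Idi1, Fdps, Fdft1, Sqle and Cyp51, out of 46078 gene rows counted in single mouse embryonic stem (ES) cells. They were taken by name, as the transcription factor SREBP2 (encoded by Srebf2) and 7 enzymes of the pathway it controls and not by a threshold on measured values, although earlier results of these data were known. None of the 8 encodes a protein that takes up cholesterol, so uptake was read only from a separate list of 12 genes.

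The wild-type ES cells, of the line E14, were grown in 2i, in which blocking of the kinases MEK and GSK3, with the cytokine LIF by the study's methods, keeps naive pluripotency without serum. A gate on forward and side scatter then took small cells, which have just left mitosis or are in G1, or cells were taken ungated, and both were plated on laminin for 6 h, either in 2i again or in N2B27, the base medium without the inhibitors and LIF, in which cells start to leave the naive state. Single cells were then sequenced by Smart-seq2, 24 for each of the 4 groups, which are named here by medium and gate (2i small and 2i ungated, N2B27 small and N2B27 ungated). Each group is 1 sample, so its cells are not replicates, no difference could be tested, and the intervals given below cover counting error only.

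After filters on cells, 12 cells of 2i small, 22 of 2i ungated, 20 of N2B27 small and 21 of N2B27 ungated were kept, 75 of 96 in all, with 1364155 to 4844170 counts on genes in a cell. Medium cannot be told apart from the plate and sequencing lane, and the 2 gates lie on different index rows of a plate. The share of counts on added spike-in RNA, which is larger where a cell gave less RNA of its own, had medians of 3.47% in 2i small, 1.28% in 2i ungated, 2.45% in N2B27 small and 1.14% in N2B27 ungated cells. The highest single cells, in the same order, were at 40.9%, 2.42%, 6.03% and 1.90%. The kept 2i small cells also include 1 with 15712 detected genes, where the median of that group was 7603. Phases called by cyclone followed the gate, with 0 of 22 cells in G1 in 2i ungated and 2 of 21 in N2B27 ungated, against 6 of 12 and 6 of 20 in the small groups. All 5 ES cell markers (Pou5f1, Sox2, Nanog, Zfp42 and Esrrb) had counts in at least 50% of the cells of every group, and the summed level of 6 fibroblast markers was at most 0.822 normalized counts in any cell. 5 of these 6 were at 0 in 2i small (all but Col1a2) and in 2i ungated (all but Thy1), and all 6 in both N2B27 groups. Markers of primitive endoderm, mesoderm, neuroectoderm and trophoblast had medians of the summed level of at most 4.54 in any group, and reached 354, 286, 805 and 352 in the highest single cells.

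SREBP2 is made as a precursor in the membrane of the endoplasmic reticulum. When sterols are low its escort SCAP carries it to the Golgi, where proteases release the part that enters the nucleus and binds sterol regulatory elements (SREs) in its target genes. Those targets include most enzymes that build cholesterol from acetyl-CoA, and also the genes that import it, so the pathway is known as a feedback system in cells grown without lipoproteins from serum.

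Promoters were at hand for 5 of the 8 genes (RefSeq, GRCm38.p6, 250 bases before to 50 after the start site), and 3 are shown because they differ in matches to the SRE patterns searched. Capitals mark matches on either strand to TCACNCCAC or TCACCCCA (SRE letters, which can overlap), to CCAAT, known as a site of NF-Y, and to GGGCGG, a GC box. The windows are chr15:82147019-82147318 (plus strand), chr13:119690101-119690400 (plus strand) and chr5:4104648-4104947 (minus strand), in the order of the lines.
Srebf2: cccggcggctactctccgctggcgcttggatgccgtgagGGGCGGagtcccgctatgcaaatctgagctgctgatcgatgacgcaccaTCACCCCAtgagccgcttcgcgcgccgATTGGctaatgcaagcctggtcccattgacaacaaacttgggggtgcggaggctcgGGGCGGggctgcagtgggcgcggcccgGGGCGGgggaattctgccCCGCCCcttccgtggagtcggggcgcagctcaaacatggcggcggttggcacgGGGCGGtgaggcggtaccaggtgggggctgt
Hmgcs1: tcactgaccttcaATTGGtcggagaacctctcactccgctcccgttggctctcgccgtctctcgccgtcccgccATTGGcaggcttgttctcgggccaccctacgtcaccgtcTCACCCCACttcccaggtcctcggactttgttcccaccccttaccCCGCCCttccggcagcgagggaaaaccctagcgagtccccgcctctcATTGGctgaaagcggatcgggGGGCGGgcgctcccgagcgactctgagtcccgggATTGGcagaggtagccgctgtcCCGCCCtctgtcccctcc
Cyp51: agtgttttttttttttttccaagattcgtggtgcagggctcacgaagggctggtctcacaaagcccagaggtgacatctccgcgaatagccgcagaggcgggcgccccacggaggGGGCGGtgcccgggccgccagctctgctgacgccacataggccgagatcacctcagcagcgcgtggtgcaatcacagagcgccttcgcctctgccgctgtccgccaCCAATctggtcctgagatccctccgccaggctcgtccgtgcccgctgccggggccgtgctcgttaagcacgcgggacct

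TCACNCCAC was present in the promoter of Hmgcs1, starting 137 bases before the start site, and in 1.24% of 32851 mouse promoters of the same length. TCACCCCA was present there and in Srebf2, starting 162 bases before the start site, and in 1.56% of all promoters. CCAAT and GGGCGG were present in all 5 promoters, those of Mvd and Idi1 included, and in 37.4% and 35.7% of all promoters. A match describes letters in the window and is not a measured binding site. No other SRE pattern was searched, so a promoter without a match can still hold an SRE.

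Per kilobase of exon, the order of the mean levels was nearly the same in every group. In 2i ungated cells Fdft1, which joins farnesyl diphosphate into squalene as the first committed step towards sterols, was highest at 225 normalized counts per kilobase. Mvd, which makes isopentenyl diphosphate, followed at 176, and Sqle, which adds oxygen to squalene, at 147. Hmgcs1, which makes HMG-CoA at the entry to the pathway, had 57.6, and Cyp51, the lanosterol demethylase, had 54.6. Idi1, the isomerase of isopentenyl diphosphate, had 24.6 and Srebf2 had 16.7. Fdps, which makes farnesyl diphosphate, was lowest at 0.763. The order was the same in 2i small and N2B27 ungated cells, and in N2B27 small cells only Srebf2 (22.2) and Idi1 (12.8) changed places. The ranges over cells of neighbours in this order overlapped in every group, so the order holds for means and not for single cells.

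The Fdps row has to be read with the way its reads were assigned. Its exons (GRCm38, chromosome 3, 89093588 to 89101959, minus strand) share 1124 bases with Gm43738, a gene model on the same strand, and HTSeq, the counting tool, sets aside reads that overlap more than 1 gene. Gm43738 itself had 0 counts in every group. The genome also holds processed pseudogenes, copies of spliced transcripts without introns, that are nearly identical to Fdps. A stretch of 100 coding bases (480 to 579 of the coding sequence) is shown with the same stretch of the 2 copies that held most counts, because it shows how few bases could tell the reads apart. Capitals mark bases of a copy that differ from Fdps.
Fdps: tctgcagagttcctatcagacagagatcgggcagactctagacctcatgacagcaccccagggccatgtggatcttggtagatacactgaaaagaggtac
Gm3571: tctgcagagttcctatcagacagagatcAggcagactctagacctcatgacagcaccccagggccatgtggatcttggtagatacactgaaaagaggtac
Gm5873: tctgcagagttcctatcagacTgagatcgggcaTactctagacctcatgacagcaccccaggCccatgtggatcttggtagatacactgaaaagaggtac

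The 2 copies differed from Fdps at 1 and 3 of these 100 bases, and at 98.87% and 96.72% identity over 1062 and 1066 aligned bases. Over all cells of a group Fdps held 37 counts in 2i small and 67 in 2i ungated, and 71 in N2B27 small and 145 in N2B27 ungated. In the same order its mean normalized counts were 2.17, 3.21, 3.12 and 5.88, while those of Gm3571 were 196, 396, 279 and 411. Of the counts on Fdps and its 3 copies with rows in the tables, Fdps itself held between 0.600% and 1.05%. The deposited Fdps row therefore holds a minor part of the reads that match this gene, and whether the rest came from Fdps or from transcribed copies was not tested.

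Idi1 (chromosome 13, 8885501 to 8892451, plus strand) had a copy, Gm13502, with 100% identity over 684 bases and more counts than Idi1 in every group. The mean of Gm13502 was 83.3 in 2i small, 90.5 in 2i ungated, 99.1 in N2B27 small and 131 in N2B27 ungated cells. Idi1 held 45.5%, 48.8%, 31.1% and 44.9% of their sum, in which a further copy, Gm35570, has a minor part. For Fdft1 (chromosome 14, 63145150 to 63179578, minus strand) the copy Gm6781 was small, and Fdft1 held 95.4% to 96.0% of the sum. Fdft1 also shares 774 exon bases with Ctsb, and Cyp51 166 with Akap9, both on the other strand. Reads of such a pair cannot be assigned to a strand with this protocol.

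**Figure D1:**
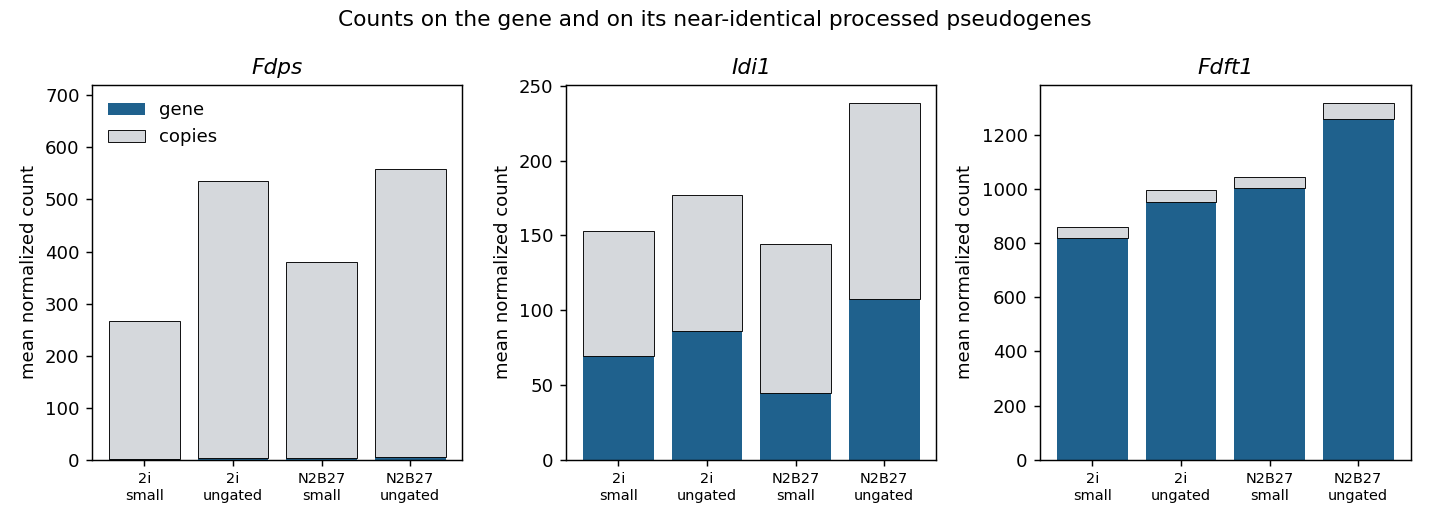
Bars give the mean normalized count over the kept cells of each group for Fdps, Idi1 and Fdft1 (blue) and for their near-identical processed pseudogenes (grey, stacked on top), on linear axes from 0 that differ between panels. The gene itself is at most 1.05% of the bar for Fdps, 31.1% to 48.8% for Idi1 and at least 95.4% for Fdft1.

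Cells of one group differed widely. The 7 genes other than Fdps had a coefficient of variation over cells from 0.50 (Fdft1, 2i ungated) to 2.25 (Hmgcs1, 2i small). Fdft1 had counts in 75 of 75 cells, whereas Mvd had counts in 7 of 12 cells of 2i small (58.3%, exact binomial interval 27.7% to 84.8%) and in 22 of 22 of 2i ungated. The median number of the 8 genes that reached 10 normalized counts in a cell was 5 in 2i small, 7 in 2i ungated, 6 in N2B27 small and 6 in N2B27 ungated. No cell of the small groups had all 8 at that level, and the lowest cell had 1 in each small group, 6 in 2i ungated and 4 in N2B27 ungated. The count of cells with all 8 is limited by the Fdps row. Fdps reached that level in 1 cell each of 2i small and 2i ungated, and in 2 cells each of N2B27 small and N2B27 ungated.

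**Figure D2:**
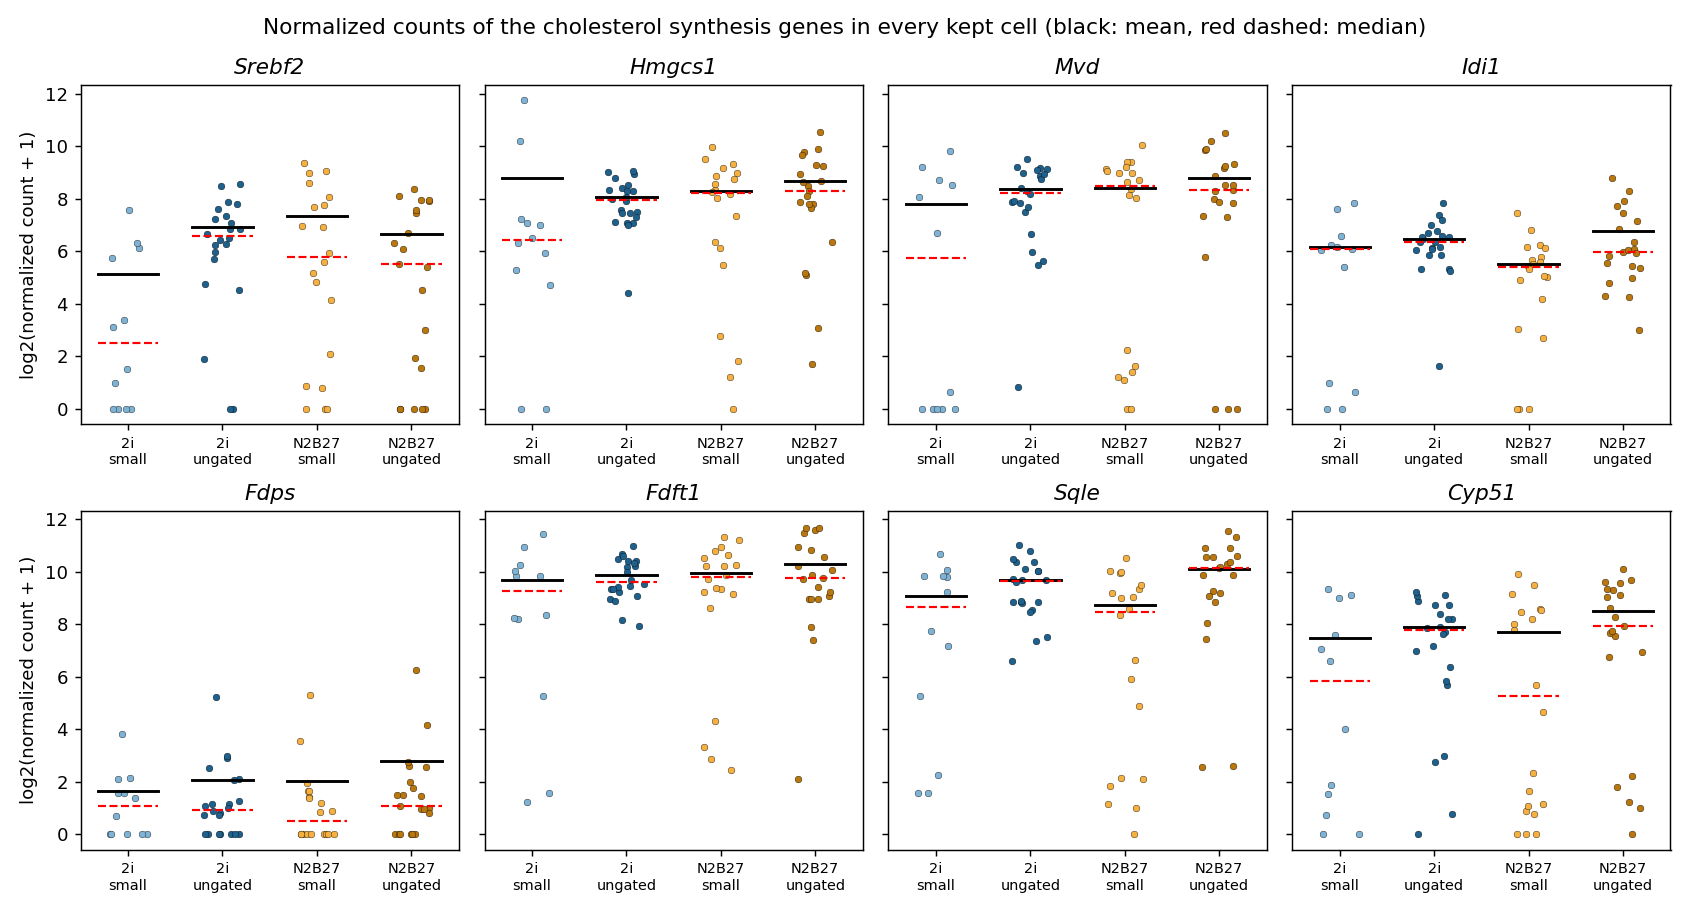
Each point is the log2(normalized count + 1) of a gene in 1 kept cell, with black lines at the log2 of the mean and red dashed lines at the median; cells are grouped by medium and gate on the x axis. Cells with almost no counts of Mvd, Sqle and Cyp51 lie mainly in the small groups, while most ungated cells form a band at high counts.

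The first comparison asked how the genes differed between small and ungated cells 6 h into N2B27. The mean of 7 of the 8 genes was lower in small cells and that of Srebf2 was higher, beside 54.4% of all 8704 genes compared that had a lower mean. The median log2 ratio of the 8 was -0.57, against -0.10 over all genes. A lower mean by at least 2-fold was seen in Sqle and Idi1, 2 of the 7 genes that passed the filter of 20 normalized counts, beside 16.4% of all genes, and none was higher by that much, beside 12.8%. Fdps did not pass that filter in any comparison.

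Sqle ranged from 0 through a median of 357 to 1465 normalized counts in N2B27 small cells, and from 4.89 through 1148 to 2976 in N2B27 ungated cells. The ranges overlapped, but the median of the ungated cells was above the second-highest small cell, at 1059. The means were 423 and 1115, a log2 ratio of -1.40, and rested on 10694 counts (95% Poisson interval 10492 to 10899) and 26833 counts (26513 to 27156). Both index rows of small cells, with row means of 289 and 532, lay below both rows of ungated cells, with 806 and 1395. Here and below, the rows of a group divide the cells of 1 sample, so they are not replicates of the sort or the sample.

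Idi1 ranged from 0 through 40.9 to 174 in N2B27 small cells and from 6.95 through 61.6 to 443 in N2B27 ungated cells, with means of 44.9 and 107. The log2 ratio was -1.24, from 1027 counts (965 to 1092) and 2526 counts (2428 to 2626), and both rows of small cells again lay below both rows of ungated cells. With the counts of its 2 copies added, an alternative chosen after seeing the data, the ratio was -0.72 and no longer past 2-fold. Among cells called in S phase alone the ratio of Idi1 was -0.07, and with no filter on cells it was -4.64.

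Srebf2, the regulator, went the other way from its targets. It ranged from 0 through 53.6 to 654 in N2B27 small cells and from 0 through 44.3 to 332 in N2B27 ungated cells, so that the ranges overlapped and the medians lay close together. The means were 160 and 98.6, a log2 ratio of 0.69. Its sign turned with spike-in size factors, to -0.19, where the median of all genes was -0.84; relative to that median, Srebf2 was higher under all 5 other scalings tried (0.64 to 0.77, and 0.79 as reported). Both rows of small cells, 141 and 182, lay above both rows of ungated cells, 95.2 and 102.

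The other enzymes had smaller ratios. Cyp51 ranged from 0 through 37.8 to 969 in small cells and from 0 through 242 to 1095 in ungated cells, with a log2 ratio of -0.78. It reached 10 normalized counts in 11 of 20 small and 16 of 21 ungated cells, and its rows did not overlap between the gates. Hmgcs1 had a log2 ratio of -0.39, Mvd of -0.38 and Fdft1 of -0.33, and the rows of these 3 overlapped between the gates. The medians of Mvd (359 in small and 317 in ungated cells) and Fdft1 (889 and 868) went the other way from their means. That of Hmgcs1 (295 and 313) was lower in small cells. With medians of log2 values in place of the log2 of means, 5 genes were lower and 3 higher. Their median less that of all genes was then -0.08, against -0.46 as reported. Fdft1 turned sign with poscounts size factors, at 0.02, where the median of all genes was 0.37. Among S cells only, 11 small and 4 ungated, the gates gave 4 genes lower and 4 higher, with Fdft1 at 1.2, Fdps at 1.27 and Srebf2 at 1.25 past 2-fold on the higher side, Mvd at 0.28, and Sqle at -1.15. Fdps had a ratio of -0.74 on few counts, and of -0.56 with its copies added.

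The second comparison was the same contrast of gates in cells kept in 2i. The mean of 7 of the 8 genes was again lower in small cells, beside 60.3% of all 8541 genes, but their median log2 ratio of -0.42 was near that of all genes, -0.31. Without the counts of copies, Srebf2 was the 1 gene lower by at least 2-fold, beside 26.0% of all genes, and none was higher by that much, beside 17.6%. It ranged from 0 through 4.68 to 188 in 2i small cells, where 1 cell held 46.2% of the summed level, and from 0 through 94.7 to 380 in 2i ungated cells. The medians were far apart although the ranges overlapped. The means were 34.0 and 120, a log2 ratio of -1.80, from 689 counts (639 to 742) and 3249 counts (3138 to 3363). With spike-in size factors it was -0.05 where all genes had a median of 0.80, and relative to the median of all genes it was -1.48 as reported and -1.88 to -0.85 under the 5 other scalings.

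Hmgcs1 was the gene with the higher mean in 2i small cells, and that mean rested on 1 cell. Its level ran from 0 through 84.0 to 3429 in 2i small cells and from 20.4 through 248 to 535 in 2i ungated cells. The highest cell held 64.7% of the summed level of its group and the next had 1169, so the mean (441 against 265, log2 ratio 0.74) and the median pointed in opposite directions. Without the highest cell of each group the ratio was -0.56. For Sqle the ratio was -0.60, for Mvd -0.57, for Cyp51 -0.42, for Idi1 -0.31 and for Fdft1 -0.21. Fdps had a ratio of -0.41 on few counts. With its 3 copies added, the means of Fdps were 266 in 2i small and 535 in 2i ungated cells, lower by at least 2-fold. Idi1 and Fdft1 with their copies were each at -0.21. The signs of Mvd, Idi1, Fdps, Fdft1 and Cyp51 turned under at least 1 other scaling, and with spike-in or poscounts size factors 3 of the 8 were lower. The median of all genes was then 0.80 and 0.51, and 6 of the 8 lay below it under each. Relative to the median of all genes, Mvd (-0.94 to -0.03) and Cyp51 (-0.63 to -0.12) kept their sign under the 5 other scalings. Those of Hmgcs1, Idi1, Fdps and Fdft1 turned under at least 1. Small cells lay below ungated cells in both index rows for Srebf2, Idi1, Sqle and Cyp51.

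The third comparison set N2B27 against 2i in small cells, and the fourth did so in ungated cells; the 4 groups are shared among the comparisons, so their ratios are not independent. In small cells the mean was higher in N2B27 for 5 genes and lower for Hmgcs1, Idi1 and Sqle, beside 47.0% of all genes with a lower mean, with a median log2 ratio of 0.26 against 0.08 for all genes. Srebf2, 1 of the 7 genes compared, was higher by at least 2-fold, beside 22.1% of all 8455 genes, and none was lower by that much, beside 19.2%. From 34.0 in 2i to 160 in N2B27, its log2 ratio was 2.20. This is the value that turned sign with spike-in size factors, to -0.44, where the median of all genes was -1.58; relative to that median it was 1.14. The values of Hmgcs1 (-0.50), Idi1 (-0.62) and Sqle (-0.35) were lower and those of Mvd (0.62), Fdps (0.38), Fdft1 (0.29) and Cyp51 (0.23) higher. With the counts of their copies added, Idi1 was at -0.08, Fdps at 0.51 and Fdft1 at 0.28. Hmgcs1 turned to 0.70 without the highest cell of each group, and Mvd, Fdps, Fdft1 and Cyp51 turned sign with spike-in size factors. Relative to the median of all genes under that scaling, Mvd, Fdft1 and Cyp51 stayed higher, while Fdps, Hmgcs1 and Sqle turned.

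In ungated cells the means of the 7 enzymes were all higher in N2B27, and that of Srebf2 was lower, at -0.28 (0.20 with poscounts size factors, where the median of all genes was 0.43). The enzymes lay close together, at 0.31 (Idi1), 0.40 (Fdft1), 0.43 (Mvd), 0.45 (Sqle), 0.58 (Cyp51), 0.63 (Hmgcs1) and 0.71 (Fdps). With means of log2 values in place of the log2 of means, 6 of the 8 were lower, against 75.7% of all genes. None of the 8 was past 2-fold, beside 8.05% of all 8682 genes that were higher and 9.42% that were lower by that much, and 51.3% of all genes had a lower mean. The median of the 8 was 0.44 and that of all genes -0.02. Ranges over cells overlapped for every gene, and the medians over cells of Mvd (298 and 317) and Fdft1 (782 and 868) differed less than their means. The median of Idi1 went the other way from its mean, with 80.5 in 2i and 61.6 in N2B27. Among S cells only, 4 in N2B27 and 7 in 2i, 3 genes were lower and 5 higher, with Idi1 at -1.17 and Fdft1 at -0.92. With the 3 copies added, Fdps had a ratio of 0.06. The choice of cells changed several of these values. With fixed limits on cells Sqle was at -1.97, and Idi1, Mvd and Fdps were at 3.20, 1.73 and 2.69. With no filter on cells Srebf2 was at -3.09 and Sqle at -1.90, with the same 3 genes past 2-fold on the higher side. With poscounts size factors Hmgcs1, Cyp51 and Fdps were past 2-fold on the higher side, where all genes had a median of 0.43.

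**Figure D3:**
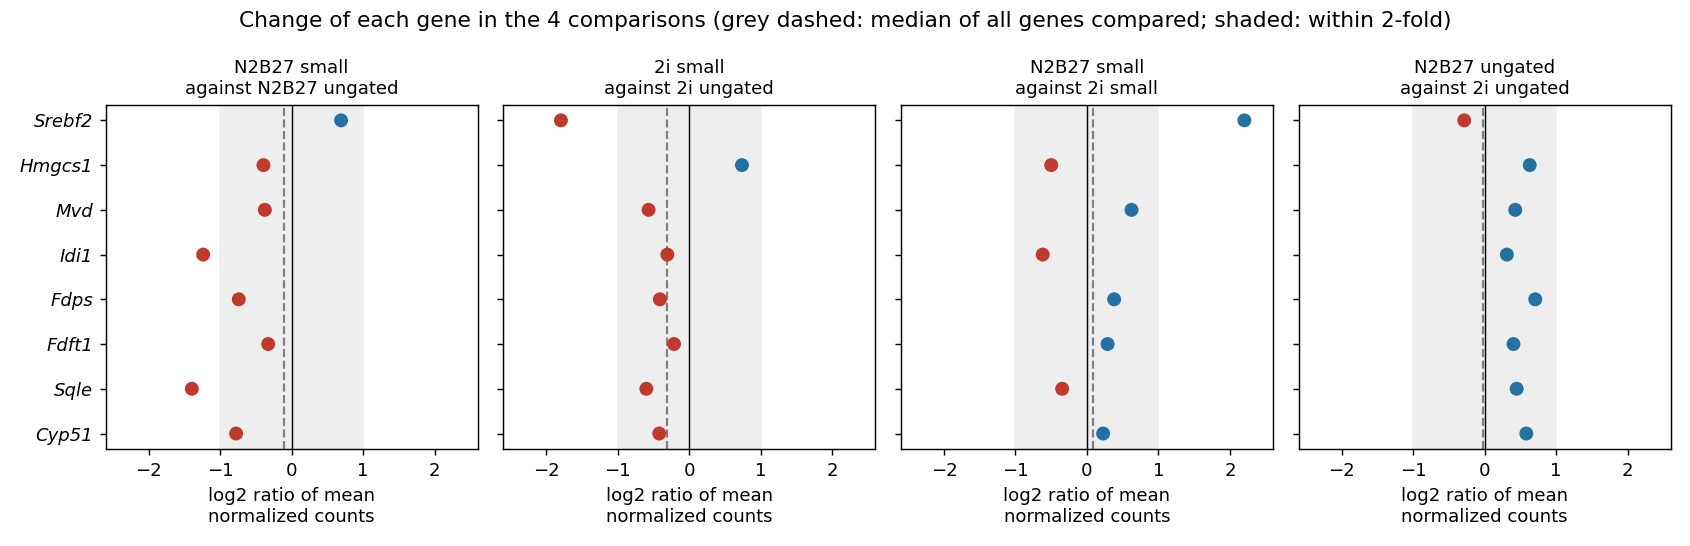
Points give the log2 ratio of mean normalized counts (pseudocount 1) for each gene, in 1 panel per comparison, red where the first group is lower and blue where it is higher; the grey dashed line is the median of all genes compared and the shaded band is within 2-fold. The enzymes lie left of the all-gene median in N2B27 small against N2B27 ungated cells and right of it in N2B27 ungated against 2i ungated cells, and Srebf2 lies on the opposite side each time, while Mvd and Fdft1 cross that median in the first panel with spike-in size factors.

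Phase, spike-in share and number of detected genes moved with several of the genes across cells of the small groups, though not in the same way for each gene. In N2B27 small cells the mean of Cyp51 was 9.27 over 6 G1 cells, 222 over 11 S cells and 570 over 3 G2/M cells. Its highest G1 cell was at 51.1. Sqle had means of 175, 464 and 770 in the same order, though 1 G1 cell at 1013 made up most of the first and the median of the G1 cells was 2.99, and Hmgcs1 of 115, 302 and 740, whereas Idi1 (54.1, 37.6 and 53.3) and Srebf2 (166, 169 and 114) had no such order. In 2i small cells Mvd was at most 0.541 in any of 6 G1 cells and between 103 and 894 in 5 S cells, so the 2 phases did not overlap. In N2B27 small cells they did overlap, since Mvd ran from 1.13 to 1045 in G1 and from 0 to 678 in S. Hmgcs1 also went the other way in 2i small cells, with a G1 mean of 610, which holds the highest cell, against 94.2 in S. None of the 8 genes is among the 667 genes that set the phase calls.

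The spike-in share moved along with these phases. Its median was 4.93% in G1, 2.36% in S and 1.31% in G2/M in N2B27 small cells, and 10.5% in G1 and 2.32% in S in 2i small cells. A joint level, the mean over the 8 genes of each gene's z value within a group, had a Spearman correlation with spike-in share of -0.80 over the 12 cells of 2i small and of -0.78 over the 20 of N2B27 small. It was -0.25 over the 22 cells of 2i ungated and 0.07 over the 21 of N2B27 ungated, where the spike-in share varied less. With the number of detected genes it was 0.75 in 2i small, 0.11 in 2i ungated, 0.71 in N2B27 small and -0.07 in N2B27 ungated cells. The part of RNA content in the difference between gates was not tested, and fewer molecules per cell and a lower detection of the same molecules cannot be told apart here.

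**Figure D4:**
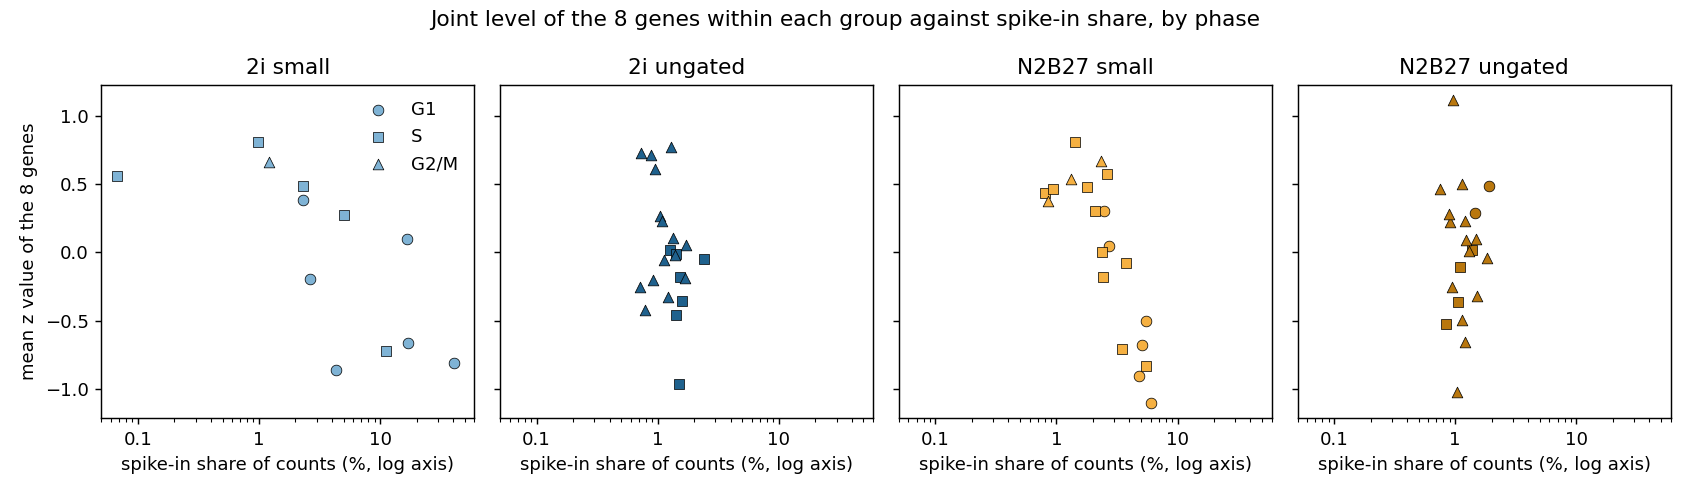
Each point is 1 cell, with the share of its counts on spike-ins on a log axis and the mean z value of the 8 genes within its group on the y axis; circles, squares and triangles are cells called in G1, S and G2/M. The joint level declines with spike-in share in the small groups (Spearman -0.80 and -0.78) and not in N2B27 ungated cells (0.07).

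Across the cells within a group, Sqle with Cyp51 had the highest correlation on average over the groups (0.49) and Fdft1 with Sqle the next (0.48). The Spearman correlation of Sqle with Cyp51 was 0.54 in 2i small, 0.47 in 2i ungated, 0.55 in N2B27 small and 0.41 in N2B27 ungated cells, and that of Fdft1 with Sqle was 0.72, 0.19, 0.45 and 0.56. These are descriptions over 12, 22, 20 and 21 cells that share library preparation, size factors and the spread in RNA content shown above. Averaged over groups, Cyp51 stood in place 5 and Fdft1 in place 7 among 6338 genes ordered by their correlation with Sqle, and Hmgcs1 in place 51, where the median gene had 0.06. From the side of Fdft1, Sqle stood in place 2. Srebf2 stood much further down, in place 1419 for Sqle with a mean correlation of 0.17. For Idi1, whose reads are divided with its copy, Sqle stood in place 252. In single groups other pairs were higher, such as Hmgcs1 with Cyp51 in N2B27 small cells (0.56), and Fdft1 with Cyp51 was at -0.13 in 2i ungated cells. Over all 28 pairs of the 8 genes the median correlation was 0.19, 0.08, 0.21 and 0.19 in the 4 groups.

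**Figure D5:**
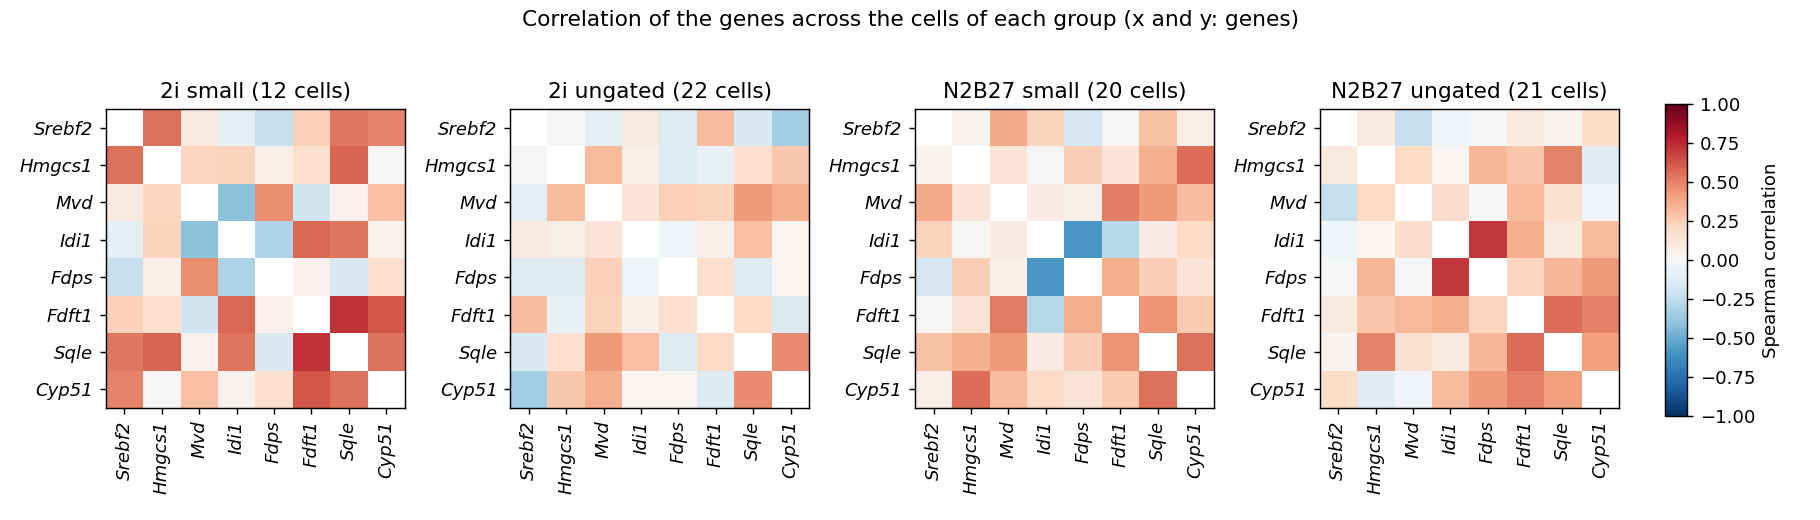
Colour gives the Spearman correlation of log2(normalized count + 1) for each pair of the 8 genes over the cells of a group, from blue (-1) to red (1), with genes on both axes. Sqle and Cyp51 are positive in all 4 groups (0.41 to 0.55), whereas Idi1 with Fdps, which has few counts, runs from -0.58 to 0.71.

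The genes whose pattern over cells was most like the joint level of the 8 were taken from 6332 other genes with at least 20 normalized counts in every group. The first was Gm6781, with a mean correlation over groups of 0.59, which is the processed pseudogene of Fdft1 and may share its reads. The next were Gm16477 (0.52), Epp13 (0.51), Llgl2 (0.50), Gm12033 (0.50), Nectin2 (0.49), Cnn3 (0.49), Add1 (0.49) and Tesk2 (0.49), and the tenth was Lss (0.48), the lanosterol synthase, whose step lies between Sqle and Cyp51. The other listed sterol synthesis enzymes that could be ranked ran from Dhcr7 in place 31 (0.45) and Msmo1 in place 108 (0.40) through Acat2 (396), Nsdhl (701), Ebp (824) and Mvk (844) to Sc5d (1887) and Pmvk (1990, 0.19), whereas the median gene had 0.13. Insig1 stood in place 179 (0.38) and the fatty acid genes Elovl6 and Fads2 in places 297 and 310. The 7 genes of the mevalonate branches that were ranked ran from Pdss2 in place 1397 (0.23) to Ggps1 (5847) and Nus1 (5916, -0.15). The joint level itself moved with spike-in share and detected genes in the small groups, and the part of RNA content in these ranks was not tested. Gm12033 was at 0.85 in 2i small and 0.83 in N2B27 small, but at 0.27 in 2i ungated and 0.06 in N2B27 ungated cells. Gm6781 was instead highest in N2B27 ungated cells (0.76).

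The other genes of the pathway were read by list. Of 11 other sterol synthesis enzymes, 9 were compared between the gates in N2B27, and 8 had a lower mean in small cells (54.4% of all genes), with a median log2 ratio of -0.58 against -0.10 for all genes. The 2 lower by at least 2-fold (16.4% of all genes) were Nsdhl (63.5 against 239 normalized counts, log2 ratio -1.90) and Pmvk (45.8 against 152, -1.71). Of 10 compared in 2i, 8 were lower in small cells (60.3% of all genes) and 4 by at least 2-fold (26.0% of all genes), namely Lss (71.3 against 271, -1.91), Sc5d (-1.63), Nsdhl (-1.57) and Mvk (-1.44), with a median of -0.84 against -0.31. In 2i small, Nsdhl had counts in 4 of 12 cells, Lss in 6, Sc5d in 7 and Mvk in 8. Between the media the enzymes did not move as a block. In small cells Lss was higher in N2B27 (1.24), 1 of 10, beside 22.1% of all genes. Pmvk and Hsd17b7 were lower there (-1.96 and -1.32), 2 of 10, beside 19.2%. In ungated cells Hsd17b7 was lower in N2B27 (-1.27), 1 of 10, beside 9.42%. Hsd17b7 had counts in only 6 of 20 N2B27 small and 3 of 12 2i small cells. It had counts in 3 of 21 N2B27 ungated and 10 of 22 2i ungated cells. The median of the list in ungated cells was -0.18, on the other side of the all-gene median from the 8 genes.

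The machinery that controls SREBP2 was compared in part, since several of its genes had few counts. In N2B27 the escort Scap (12.6 against 34.3, log2 ratio -1.38) and the retention factor Insig1 (103 against 228, -1.15) were lower in small cells by at least 2-fold, 2 of the 4 genes compared, beside 16.4% of all genes. In 2i, 3 of 6 were lower by that much, beside 26.0% of all genes, namely Srebf1 (1.43 against 102, -5.41), which encodes the related factor SREBP1, Insig2 (8.19 against 73.6, -3.02) and Scap (-2.50). Mbtps2, the second protease that releases SREBP2, was higher in 2i small cells (148 against 10.2, 3.73), 1 of 6, beside 17.6% of all genes. These ratios rested on few cells: in 2i small, Mbtps2 had counts in 5 of 12 cells, Insig2 and Scap in 4 each and Srebf1 in 2. In N2B27, Scap had counts in only 2 of 20 small and 7 of 21 ungated cells, whereas Insig1 had counts in 19 and 21. From 2i to N2B27 in small cells Insig2 was higher (2.81), 1 of 4, beside 22.1% of all genes. Mbtps2 and Insig1 were lower there (-4.37 and -1.16), 2 of 4, beside 19.2%. In ungated cells Srebf1 was lower in N2B27 (32.8 against 102, -1.61), 1 of 5, beside 9.42%.

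For uptake, trafficking and efflux, 5 of 12 listed genes could be compared between the gates in N2B27 and 4 had a lower mean in small cells, beside 54.4% of all genes. Scarb1, a lipoprotein receptor, was at 53.5 against 189 (log2 ratio -1.81) and Stard4, which carries sterol inside the cell, at 26.0 against 106 (-1.99). They were the 2 of 5 lower by at least 2-fold, beside 16.4% of all genes. Both were also lower in 2i small than in 2i ungated cells, with ratios of -1.37 and -2.41, as was Soat1, which esterifies cholesterol (-1.15). These were 3 of the 7 compared in 2i, beside 26.0% of all genes. Soat1 was higher in N2B27 small than in 2i small cells (1.14), and Npc2, which binds cholesterol in lysosomes, lower (-1.18). Each was 1 of 6 compared, beside 22.1% of all genes higher and 19.2% lower by at least 2-fold. The lipoprotein receptors Vldlr and Lrp8 were too low to compare, with means of at most 3.16 and 11.2.

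Of 8 genes of the mevalonate branches, 0 were past 2-fold between the gates in N2B27, beside 16.4% of all genes lower and 12.8% higher. Fntb, a farnesyltransferase subunit, was lower in 2i small than in 2i ungated cells (-1.24), 1 of 7 compared, beside 26.0% of all genes. Between the media, Icmt was higher (3.35) and Ggps1 (-1.16) and Pdss2 (-1.06) lower in N2B27 small cells. These were 1 and 2 of 8, beside 22.1% of all genes higher and 19.2% lower by at least 2-fold. Icmt had counts in only 5 of 20 N2B27 small and 3 of 12 2i small cells, and Ggps1 in 11 and 5. Pdss2 was lower in N2B27 ungated cells (-1.30), 1 of 8, beside 9.42% of all genes. The median of this list in ungated cells was -0.34, and all 8 genes had a lower mean in N2B27 than in 2i, beside 51.3% of all genes and an all-gene median of -0.02.

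Of 9 genes of fatty acid synthesis, 8 were compared between the gates in N2B27 and 7 had a lower mean in small cells (54.4% of all genes), with a median log2 ratio of -1.01 against -0.10. The 4 lower by at least 2-fold (16.4% of all genes) were the desaturases Scd2 (2.04 against 52.3, -4.13, with counts in 6 of 20 and 14 of 21 cells), Fads2 (42.5 against 192, -2.15) and Scd1 (48.8 against 124, -1.33) and the acetyl-CoA synthetase Acss2 (58.9 against 136, -1.20). In 2i, 0 of 8 were past 2-fold between the gates, beside 26.0% of all genes lower and 17.6% higher. Their median was -0.38, near that of all genes, -0.31. From 2i to N2B27 in small cells Scd2 (-3.99), Fasn (-1.39) and Scd1 (-1.04) were lower, 3 of 8, beside 19.2% of all genes. In ungated cells 0 of 8 were past 2-fold, beside 8.05% of all genes higher and 9.42% lower.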

How the data were processed

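The 8 genes and the pathway lists were chosen with earlier results of these data known. The authors trimmed reads (Trim Galore 0.4.4, per their processing notes), aligned them to GRCm38 with GSNAP, counted them on Ensembl release 81 genes with HTSeq and deposited raw counts per gene and cell, with no normalization and no pooling. Columns were matched to samples through the authors' list of runs. Rows that name no gene held 27.6% of counts and were left out, 6.77% being reads that overlap more than 1 gene.

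Cells were removed per plate beyond 3 median absolute deviations on the low side for total count and genes, and on the high side for mitochondrial share (scater 1.30.1). The limits were looser on the plate of 2i than on that of N2B27. They were 307960 against 1250614 counts, 4435 against 5316 genes and 5.16% against 4.67% mitochondrial share. The kept 2i small cell at 40.9% spike-in had 4612 genes, below the limit of the N2B27 plate. Counts were divided by DESeq2 1.42.0 size factors based on 1227 genes counted in all kept cells, and phases were called with cyclone (scran 1.30.0). Names, positions and exon lengths came from GENCODE M21 on GRCm38, a later annotation than that of the authors. Copies were found with BLAST 2.17.0 (at least 95% identity over 200 bases).

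A comparison is the log2 ratio of mean normalized counts with a pseudocount of 1, for genes whose 2 means average at least 20, and 2-fold is the limit used. Each group is 1 sample, so no test was run and no p-value is given, although the study's methods name DESeq2. The script was tested on simulated data. Depth was 1364155 to 4844170 counts per cell, and intervals are 95% exact Poisson or binomial. The genes named are the 8, those of the lists past 2-fold (at most the 4 largest for a list and comparison) and the 10 most like the joint level; list genes named for the latter ranking or as too low to compare were chosen after their values were seen. Cells were sorted singly, and no doublet caller was run. Alternatives were other cell filters, size factors, pseudocounts, summaries, thinning and S phase alone. Genes of cholesterol metabolism outside these lists were not analysed here. 1 gene of the list of sterol enzymes is not reported here.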

Additional observations from a re-analysis of the deposited data

How the results depend on the processing

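The median of the 8 genes less that of all genes was recomputed under 19 alternatives, 1 of which (copies added) was chosen after seeing the data. It was -0.46 for N2B27 small against N2B27 ungated cells (-0.68 to 0.02), -0.10 for 2i small against 2i ungated (-0.51 to 0.26), 0.18 for N2B27 small against 2i small (-0.11 to 0.71) and 0.46 for N2B27 ungated against 2i ungated (0.43 to 0.66). The sign turned with cells in S only in the first 3 comparisons (0.02, 0.26 and -0.11) and in the second also without the highest cell of each gene and group (0.14). Of 608 values of single genes, 517 kept within 1.5-fold, 90 moved further and 1 turned from past 2-fold to the other sign, Srebf2 in N2B27 small against 2i small cells, at -0.44 with spike-in size factors.

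Genes lower by 2-fold in N2B27 small against N2B27 ungated cells numbered 2, and 1 with poscounts size factors, copies added or S cells only, and 4 without a filter on cells, with fixed limits on cells, with spike-in size factors and with means of log2 values. None was higher by 2-fold, but 3 were with S cells only and 1 with poscounts. For N2B27 ungated against 2i ungated cells, 0 were past 2-fold, against 2 lower and 3 higher with no filter on cells, 1 and 3 with fixed limits, 1 and 1 with S cells only, 3 higher with poscounts, 1 higher with pooled counts, and 1 lower with means or medians of log2 values. Genes lower by 2-fold in 2i small against 2i ungated cells numbered 1. There were 2 with copies added, fixed limits or S cells only, 3 with no filter on cells and 0 with spike-in size factors. With means and medians of log2 values 7 and 5 were lower by 2-fold. There 82.4% and 73.8% of all genes had a lower value, with all-gene medians of -1.39 and -0.98. None was higher by 2-fold, but 1 was with no filter, S cells only, or poscounts, scran or spike-in size factors. Shares of all genes past 2-fold are given for the reported setting only. Scaling moved all genes, of which 54.4% had the lower mean in N2B27 small against N2B27 ungated cells, but 34.8% with poscounts and 84.1% with spike-in size factors; in 2i these were 60.3%, 35.9% and 21.8%.

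No paired analysis was possible because each group is 1 sample. The number of cells and the 1 library per group limit all values.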
